A study of Mus musculus with 8 samples.

Results

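The wild-type hypothalamus was followed from embryonic day 12 (E12.0 and E12.5) to E17.5 in mouse, in 4 of the 8 RNA-seq libraries of a study of the forkhead transcription factor gene Foxd1. The members were the 4 libraries whose source label reads wild-type: 1 at E12.0, 1 at E12.5 and 2 at E17.5. The other 4 libraries have the same stages and numbers and come from Foxd1-mutant hypothalamus, and are set beside the wild type where stated. Genes were compared by symbol: 22725 symbols were listed at both stages, and the 12515 with a mean of at least 1 FPKM (read fragments scaled by transcript length and by the library's mapped fragments) over the 4 libraries were used. Each library was made from pooled RNA of dissected tissue. The sources used here do not give the strain, the mutant allele, or how many embryos went into each pool. The protocol speaks of 8 null and 10 control embryos and of controls of more than one genotype, and it names E12.5 and E17.5 as the dissection stages, so the label of the E12.0 libraries could not be checked against it. Foxd1 itself read 24.95 and 30.3 FPKM in the wild-type E12.0 and E12.5 libraries and 3.90 and 1.96 FPKM at E17.5, above every mutant library of the same stage (2.77 and 2.497 FPKM, then 0.396 and 0.230 FPKM).

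The hypothalamus forms from the ventral diencephalon, where progenitor cells lining the third ventricle divide, respond to Sonic hedgehog and other local signals, and express transcription factors that mark out its future nuclei. Cells that leave the cycle pass through a short phase of proneural gene expression and then make neuropeptides, synaptic proteins and ion channels. Glial cells arise later from the remaining progenitors. Markers of this region were present in the libraries. Nkx2-1, a transcription factor of ventral hypothalamic progenitors and neurons, read 39.8 and 24.2 FPKM in the early and 10.1 and 9.19 FPKM in the late libraries. Sim1, which specifies paraventricular neurons, read 16.7 and 18.2 FPKM early and 10.6 and 9.89 FPKM late. Nr5a1, a marker of the ventromedial nucleus, read 3.06 and 8.08 FPKM early and 4.18 and 3.74 FPKM late. The peptide genes Avp and Hcrt were at or near 0 in the early libraries (Avp 0 and 0.0892 FPKM, Hcrt 0 and 0.137 FPKM).

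The E12 values are listed per gene and the E17.5 values per transcript, in tables that were quantified separately, so stage and quantification cannot be told apart. For that reason no test was made across the stages. A symbol was counted as higher at E17.5 when the mean of log2(FPKM + 1) over the 2 late libraries lay at least 1 above the mean over the 2 early ones and both late values lay above both early values, and as lower when the opposite held. All log2 differences below are E17.5 minus E12 on that scale, which understates the change of low genes. Even where a test is allowed, 2 libraries against 2 cannot give an exact permutation p below 0.333.

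The wild-type E12.0 library stood apart from the other early libraries. Its correlation with the wild-type E12.5 library was 0.9347 across the 12515 symbols (genes are not independent replicates), against 0.9941 between the 2 E17.5 libraries and 0.9774 between the 2 early mutant libraries. It lay at least 1 log2 unit above all 3 other early libraries, mutants included, for 102 symbols and below them for 53; the E12.5 wild-type library did so for 42 and 1. Kdm6b, a histone demethylase gene, read 32.04 and 5.75 FPKM at E12.0 and E12.5. The median symbol was 0.37 log2 units higher at E12.5 than at E12.0. Counts of list members are therefore given with and without the E12.0 library. Of the genes named here that met the rule for higher or lower, Actl6b, Arntl, Cldn5, Cpe, Ezh1, Ezh2, Fdps, Kdm6b, Mbp, Myc, Robo2, Six3 and Thra were not counted without it.

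Of the 12515 symbols, 2408 (19.2%) were higher at E17.5 and 714 (5.71%) were lower. All list counts below are to be read against these shares. A gene near 0 at E12 passes the filter only through its late level, so counts of higher members describe a list and test nothing. Without the E12.0 library 1771 (14.2%) were higher and 758 (6.06%) lower; 1738 of the former and 611 of the latter were also counted with it. A difference of at least 2 was found for 611 symbols (4.88%) upward and 189 (1.51%) downward. The 2 E17.5 libraries lay at least 1 apart for 31 symbols (0.248%). E12.5 lay at least 1 above E12.0 for 647 symbols (5.17%) and below it for 148 (1.18%); with the median difference taken off, the counts were 179 (1.43%) and 351 (2.80%). The median of all symbols was itself 0.28 above zero, and some list medians are therefore also given relative to it. Small RNA genes made up 24.5% and 23.2% of FPKM at E12.0 and E12.5 and 14.1% and 13.9% at E17.5. Of the symbols listed at both stages, 14468 were above 0 at E12.0, 17082 at E12.5, and 17618 and 17789 at E17.5. The part of these in the stage differences was not tested. Higher symbols made up 77.1% of the counted ones with the deposited values, 61.1% after median-of-ratios scaling and 54.7% after quantile normalization. Any larger or smaller value in a tissue sample can come from more or fewer cells of a type or from more or less RNA per cell, which cannot be told apart in these bulk libraries.

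**Figure D1:**
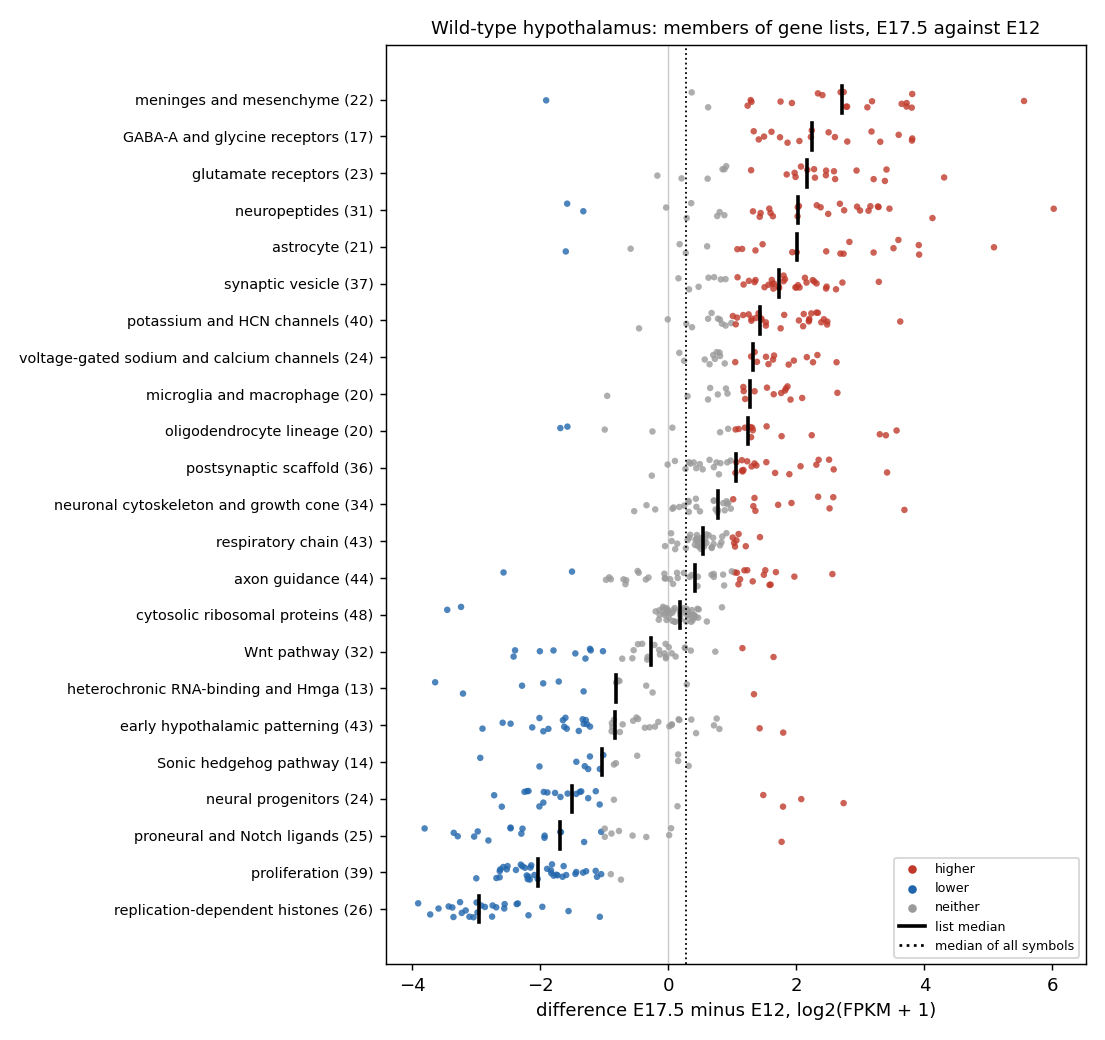
Difference between E17.5 and E12 in log2(FPKM + 1) for the members of 23 gene lists that passed 1 FPKM (number in parentheses). Each point is a gene, red if counted higher, blue if lower and grey if neither; thick bars are list medians and the dotted line is the median of all symbols, 0.28. The proliferation and histone lists lie to the left of the dotted line, and the receptor, synapse and neuropeptide lists mostly to the right.

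The 12 symbols with the largest difference in each direction mix neuronal, glial and non-neural genes. Avp, the vasopressin precursor, read 0 and 0.0892 FPKM at E12.0 and E12.5 and 71.6 and 62.1 FPKM at E17.5 (difference 6.02). Scg2, a granin of secretory granules, read 4.94 and 12.2 and 152 and 155 FPKM (4.12), and Grm5, a metabotropic glutamate receptor, read 0.574 and 1.46 and 37.0 and 39.0 FPKM (4.31). Both late values lay far above both early values in each of these genes. Astroglial genes were also among them: Aldoc, a glycolytic aldolase, read 0.156 and 0.795 FPKM early and 48.4 and 47.4 FPKM late (5.09); Tnc, the matrix protein tenascin C, read 0.148 and 0.483 and 35.8 and 35.6 FPKM (4.81); and Slc6a11, a GABA transporter, read 0.300 and 0.914 and 31.3 and 34.6 FPKM (4.43). Slc6a7, a proline transporter of glutamatergic terminals, Mal2, a membrane traffic protein gene, and Tmem91 had differences of 4.19, 4.23 and 4.26.

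Of the 12 highest, 3 are known for tissue around the hypothalamus. Ttr, the transthyretin gene typical of choroid plexus, read 0.257 and 0.0749 FPKM early and 49.99 and 133 FPKM in the 2 late libraries (6.15). Gh, the growth hormone gene of the anterior pituitary, was listed at 0 in both early libraries and read 59.4 and 15.5 FPKM late. Ptgds, a prostaglandin synthase gene strong in meninges, read 14.2 and 0.219 FPKM early and 244 and 166 FPKM late (5.56). For these 3 the late libraries disagreed with each other more than for the neuronal genes, replicate 2 being higher for Ttr and replicate 1 for Gh and Ptgds.

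**Figure D2:**
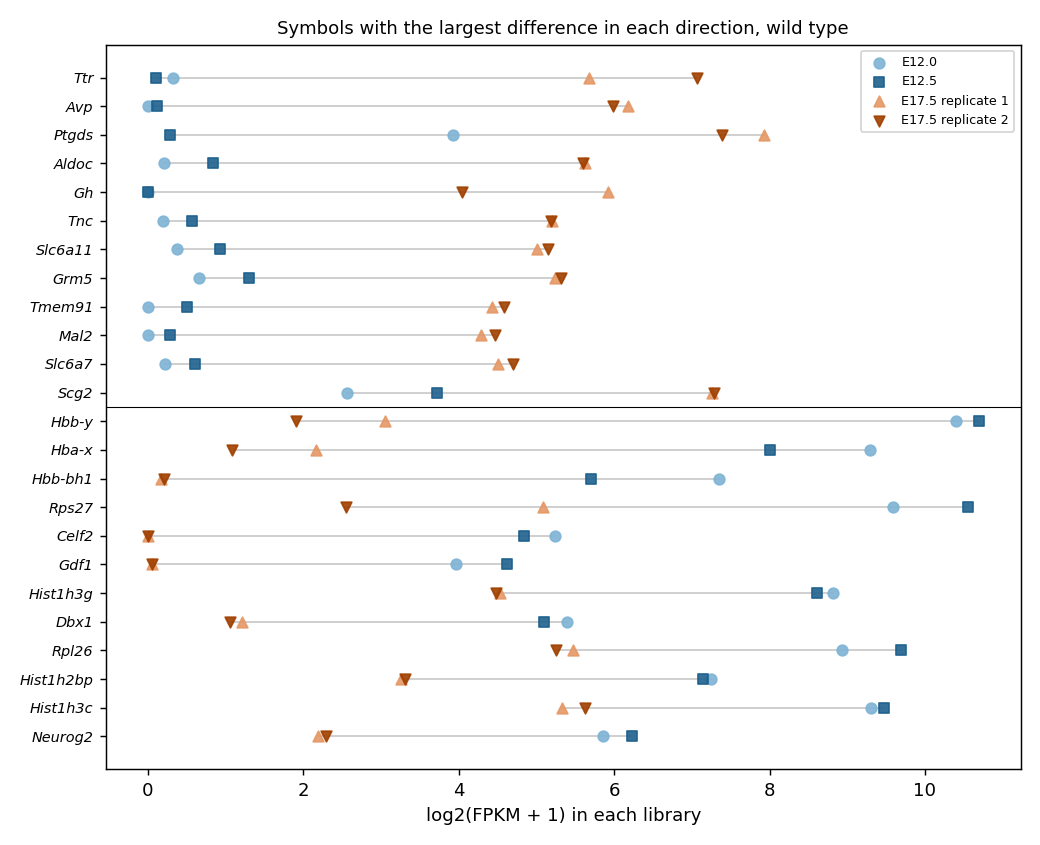
Level in each wild-type library, as log2(FPKM + 1), of the 12 symbols with the largest difference upward (top) and downward (bottom). Circles and squares are the E12.0 and E12.5 libraries and triangles the 2 E17.5 replicates. For most symbols the replicates fall on each other, while Ttr, Gh, Ptgds, Rps27, Hbb-y and Hba-x do not.

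In the other direction the embryonic globins led. Hbb-y, a yolk-sac red cell beta-like globin, read 1350.3 and 1656 FPKM early and 7.31 and 2.75 FPKM late (-8.07), and Hba-x and Hbb-bh1 had differences of -7.03 and -6.34. Adult globin rows were matched by symbol, including rows that join several symbols. On that basis the embryonic genes gave 55.2% and 28.2% of alpha-type globin FPKM at E12.0 and E12.5 and 0.255% and 0.101% at E17.5. For beta-type globins the shares were 94.4% and 91.2% early and 0.191% and 0.0980% late. The embryonic genes thus gave a large share of globin FPKM early and under 1% late. Neurog2, a proneural transcription factor, read 57.1 and 74.4 FPKM early and 3.56 and 3.90 FPKM late (-3.81), and Dbx1, a homeobox gene of progenitor domains, read 41.0 and 33.2 and 1.33 and 1.08 FPKM (-4.11).

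Several of the lowest symbols are uncertain. Rps27 and Rpl26, both ribosomal protein genes, had differences of -6.25 and -3.95, while the median of 48 other cytosolic ribosomal protein genes was 0.18. Near-identical copies of such genes are listed only in the late table, and the part of these copies in the values was not tested. Celf2, a neuronal RNA-binding protein gene, read 36.9 and 27.7 FPKM early and was listed at 0 in both late libraries, which can be a failed estimate. The histone genes Hist1h3g, Hist1h2bp and Hist1h3c belong to a family of near-identical copies, and their differences (-4.21, -3.91 and -3.91) are read with the whole family below. Gdf1 (-4.23) shares its transcription unit with Cers1, so its value is also uncertain.

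The proliferation list, 39 genes of DNA replication and mitosis, was lower almost throughout. It held 37 genes counted as lower and none as higher, with or without the E12.0 library, against 5.71% lower among all symbols. Its median difference was -2.04, which is -2.32 relative to all symbols. Ccnd1, the cyclin that carries cells through G1, read 119 and 95.6 FPKM early and 13.3 and 11.6 FPKM late (-3.00). Cenpa, the centromeric histone H3 variant, read 36.05 and 31.8 FPKM early and 4.37 and 4.46 FPKM late (-2.69). Ube2c, the ubiquitin-conjugating enzyme of the anaphase-promoting complex, read 71.5 and 70.3 and 11.4 and 9.76 FPKM (-2.64). In these genes the 2 early libraries were close to each other and well above both late ones. Plk1, a mitotic kinase, read 25.9 and 18.3 and 2.69 and 2.93 FPKM (-2.58), and Uhrf1, which guides maintenance DNA methylation, read 59.5 and 39.0 and 6.92 and 6.92 FPKM (-2.64). Pcna, the replication clamp, had the smallest difference among the genes counted (111 and 111 against 53.1 and 53.0 FPKM, -1.05), and Ccne2 and Gins2 were below the threshold (-0.90 and -0.74). The list as a whole kept a low level at E17.5: its summed FPKM was 1323 and 1165 early and 300 and 281 late.

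The promoters of Cenpa, Ube2c and Plk1 are shown as examples from this list that carry both of the short motifs known from cell-cycle promoters: the CCAAT box, and the cell-cycle homology region searched as TTTGAA or TTCGAA. Both strands were searched, so ATTGG and TTCAAA also count; in Ube2c a CCAAT and an ATTGG share letters. The sequences are RefSeq's on GRCm38.p6, from 250 bases before to 50 after the start, 5′ to 3′ on the gene's strand, with motif letters in capitals; the expression files use mm9, and no position was carried over.
Cenpa, chr5:30666636-30666935 (+ strand): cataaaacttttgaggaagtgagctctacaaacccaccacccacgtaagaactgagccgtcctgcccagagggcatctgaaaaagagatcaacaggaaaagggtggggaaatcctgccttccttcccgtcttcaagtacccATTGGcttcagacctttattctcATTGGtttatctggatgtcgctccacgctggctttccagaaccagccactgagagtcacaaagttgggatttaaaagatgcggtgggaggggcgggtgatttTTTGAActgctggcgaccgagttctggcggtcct
Ube2c, chr2:164769679-164769978 (+ strand): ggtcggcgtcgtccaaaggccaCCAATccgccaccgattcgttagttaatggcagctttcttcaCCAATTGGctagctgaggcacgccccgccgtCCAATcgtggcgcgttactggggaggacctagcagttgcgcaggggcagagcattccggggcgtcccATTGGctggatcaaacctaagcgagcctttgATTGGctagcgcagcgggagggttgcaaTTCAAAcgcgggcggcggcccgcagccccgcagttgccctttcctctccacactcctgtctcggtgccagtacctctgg
Plk1, chr7:122159185-122159484 (+ strand): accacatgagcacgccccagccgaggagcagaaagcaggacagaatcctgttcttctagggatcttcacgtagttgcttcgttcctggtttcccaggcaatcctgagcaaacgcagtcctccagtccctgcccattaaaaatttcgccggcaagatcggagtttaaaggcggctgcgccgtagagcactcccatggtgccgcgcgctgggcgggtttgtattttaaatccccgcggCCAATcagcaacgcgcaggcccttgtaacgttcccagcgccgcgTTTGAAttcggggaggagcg
Of the 39 list genes, 32 had a promoter in the reference. A CCAAT box was found in 23 of them (71.9%) and both motifs in 15 (46.9%). Shares were counted per gene symbol, and a motif in any of a symbol's promoters counted, so both motifs can come from different promoters. Of all 27025 symbols with a promoter, 41.1% held a CCAAT box, 21.7% the homology region and 9.65% both. Among the 9570 compared symbols with a promoter the shares were 43.3%, 15.4% and 7.73%. Of the other lists searched, neural progenitors held a CCAAT box in 73.7% and both motifs in 21.1% of 19 genes. The shares were 57.1% and 14.3% of 14 for GABA and glycine receptors, and 26.9% and 15.4% of 26 for synaptic vesicle genes. Cytosolic ribosomal protein genes held a CCAAT box in 36.1% of 36 genes and both motifs in none. The share with a CCAAT box was thus as high for neural progenitors as for proliferation genes. A match of letters describes the sequence and shows no bound site.

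Replication-dependent histone genes, which are transcribed in S phase, were lower in 26 of 26 cases. Their median difference was -2.95, and -3.06 against the E12.5 library alone. Hist1h1d, a linker histone, read 819 and 894 FPKM early and 84.8 and 80.3 FPKM late (-3.36), and Hist1h4c had the smallest difference (629 and 759 against 337 and 320.1 FPKM, -1.07). The summed FPKM of the list was 14132 and 15803 early and 2460 and 2247 late. Fragments of near-identical members can be split differently by the 2 quantifications, so single members are uncertain. H1f0, a linker histone of non-dividing cells, was also lower (128 and 173 against 60.1 and 57.2 FPKM), but its ratio to Hist1h1a was 0.263 and 0.350 early and 0.868 and 0.899 late.

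Neural progenitor genes were mostly lower. Of 24 that passed the filter, 18 were lower and 4 higher (17 and 4 without E12.0; median -1.51). Sox3 and Nes, a progenitor transcription factor and the intermediate filament nestin, read 42.9 and 39.2 and 116 and 109.7 FPKM early and 6.11 and 5.74 and 23.7 and 24.3 FPKM late. Msi1, a translational regulator of progenitors, read 151 and 74.4 FPKM early and 21.97 and 21.2 FPKM late (-2.25), and Hes5, the main Notch target gene, read 112 and 160.4 and 28.5 and 28.0 FPKM (-2.21). Hmgb2, a chromatin protein of dividing cells, had the largest difference downward (-2.72). The 4 that were higher were Slc1a3, Fabp7, Dbi and Cdh1, of which Cdh1 is also a marker of surface epithelium. Slc1a3, a glutamate transporter of radial glia and astrocytes, read 7.44 and 12.7 FPKM early and 71.0 and 70.3 FPKM late (2.74), and Fabp7, a lipid carrier of the same cells, read 153 and 429 and 1083 and 1087 FPKM (2.08). Other genes of radial glia, Sox9 and Vim, were lower (-1.95 and -1.36). Sox2 stayed well detected at both stages (126 and 153 and 63.7 and 61.9 FPKM, -1.13).

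Proneural factors and Notch ligands gave 16 lower and 1 higher of 25 (18 and 1 without E12.0; median -1.69). Dll3 and Dll1, ligands of the Notch pathway, read 32 and 39.2 and 42.0 and 46.2 FPKM early and 3.55 and 3.34 and 8.36 and 8.20 FPKM late. Mfng, a sugar transferase that modifies Notch, was lower by a similar amount (-3.29). The Notch receptor genes were lower too: Notch1 read 43.9 and 25.2 against 8.37 and 8.15 FPKM, with its E12.0 value well above that of E12.5. Olig1, a factor of the oligodendrocyte lineage, was the single gene of the list counted as higher (7.80 and 8.15 against 29.4 and 29.7 FPKM, 1.77), while its neighbour Olig2 had 23.3 and 25.4 against 12.02 and 11.4 FPKM (-0.99).

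Genes of the Lin28, Igf2bp and Hmga group, which mark early progenitors in many tissues, were lower in 6 of 13 cases and higher in 1 (6 and none without E12.0). Igf2bp1, an mRNA-binding protein gene, read 41.1 and 20.3 FPKM at E12.0 and E12.5 and 1.43 and 1.36 FPKM at E17.5 (-3.64). Hmga2, a chromatin protein gene, read 23.7 and 6.11 and 0.445 and 0.421 FPKM (-3.21). Both were already lower at E12.5 than at E12.0, each stage being 1 library. Lin28b, which blocks let-7 maturation, was below the threshold (7.34 and 6.35 against 3.36 and 3.74 FPKM, -0.78), and Myc was higher (2.21 and 4.79 against 10.4 and 9.42 FPKM, 1.34), but not without the E12.0 library. With values rescaled to a common total per library and small RNAs left out, 11 of 15 were lower.

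Of 44 transcription factors of the early hypothalamic plan 43 passed the filter. Of these, 17 were lower, 2 higher and 24 neither (21 and 3 without E12.0; median -0.84). After Foxd1 (-2.90), the largest differences were in Dlx2, a factor of GABAergic precursors (56.8 and 31.3 against 6.51 and 5.88 FPKM, -2.59), and Otp, which is needed for neuroendocrine neurons (71.2 and 39.2 against 8.90 and 8.60 FPKM, -2.47). Rax, a marker of ventral progenitors and later tanycytes, read 11.3 and 14.6 FPKM early and 2.63 and 2.51 FPKM late (-1.95). Six3 depended on 1 early library, with 14.2 and 4.68 FPKM at E12.0 and E12.5 against 2.83 and 2.59 FPKM late. Factors known from postmitotic neurons were found on both sides of the threshold. Arnt2, the partner of Sim1, read 43.7 and 43.4 and 55.3 and 56.9 FPKM (0.36) and Sim1 had a difference of -0.71, while Bsx and Pou3f2 were lower (-1.34 and -1.40), as was Otp. The 2 counted as higher were Lhx8 (0.161 and 1.68 against 4.22 and 6.16 FPKM, 1.79) and Rora, a nuclear receptor of the suprachiasmatic nucleus (0.538 and 1.17 against 3.93 and 3.88 FPKM, 1.43).

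Signalling genes of the patterning period did not all go one way. In the Sonic hedgehog pathway 8 of 14 genes were lower and none higher (6 and none without E12.0; median -1.04). Shh, the ligand itself, read 30.0 and 27.1 FPKM early and 2.85 and 2.84 FPKM late (-2.94); Ptch1, its receptor and target, read 63.8 and 38.8 and 18.3 and 17.2 FPKM (-1.44); and Gli1, a target that reports pathway activity, read 4.36 and 2.96 and 1.24 and 0.728 FPKM (-1.23). The ligand and these targets were thus lower at E17.5 than at E12, with Ptch1 still well detected. Of the 14, 6 were neither higher nor lower, among them Hhip and Foxa2 (-0.82 and -0.49). With a pseudocount of 5 only 3 of the 14 were counted. In the Wnt pathway 9 of 32 were lower and 2 higher (8 and 1 without E12.0), led by the ligands Wnt8b (12.9 and 13.7 against 1.60 and 1.76 FPKM, -2.42) and Wnt7b (77.2 and 71.6 against 12.97 and 13.7 FPKM, -2.40). Axin2, a common feedback target of Wnt signalling, was level (9.84 and 10.2 against 9.85 and 9.67 FPKM, -0.03). Wnt4 was higher (0.317 and 0.387 against 3.38 and 3.06 FPKM). The FGF and BMP list had 8 higher and 2 lower of 30, with or without E12.0. These shares, 26.7% and 6.67%, were near the 19.2% and 5.71% of all symbols. The ligand Fgf15 read 11.5 and 12.4 FPKM early and 2.36 and 1.69 FPKM late (-2.11). Etv5 and Etv4, targets of FGF signalling, had differences of 1.98 and 1.94.

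Neuropeptide genes were mostly higher at E17.5. Of 42 listed, 31 passed the filter, and 23 of these were higher and 2 lower (22 and 2 without E12.0; 74.2% higher, against 19.2% of all symbols). A gene near 0 at E12 passes the filter only through its late level, so these counts describe the list and test nothing. Oxt, the oxytocin precursor, was listed at 0 in both early libraries and read 8.10 and 7.72 FPKM late. Hcrt, the orexin precursor, read 0 and 0.137 FPKM early and 9.12 and 7.57 FPKM late (3.13), and Crh, the corticotropin-releasing hormone precursor, read 0 and 0.0432 and 4.71 and 3.55 FPKM (2.32). These 3 genes of neuroendocrine and lateral hypothalamic neurons were therefore near the floor at E12. A second group was already detected there. Pmch, the melanin-concentrating hormone precursor, read 5.81 and 26.2 FPKM early and 54.0 and 55.8 FPKM late (2.04), and Npy read 1.16 and 5.37 and 29.7 and 27.5 FPKM (2.99). Sst, the somatostatin precursor, read 25.9 and 69.6 FPKM early and 75.7 and 70.2 FPKM late (0.76), so that E12.5 was close to E17.5. Cartpt was lower (8.95 and 23.8 against 4.87 and 3.70 FPKM, -1.58); the other lower gene, Gpr50 (-1.33), encodes an orphan receptor of tanycytes and not a peptide, and granins such as Scg2 are also in the list.

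Pomc, the precursor of melanocortins in arcuate neurons and also in pituitary cells, read 7.44 and 34.6 FPKM at E12.0 and E12.5 and 38.9 and 11.3 FPKM at E17.5. Its 2 late values lay on either side of the E12.5 value, and they followed the summed pituitary markers, which were 94.7 FPKM in replicate 1 and 24.6 FPKM in replicate 2. The part of pituitary tissue in the Pomc value was not tested. Avp, Oxt and Crh did not differ between the replicates in that way. The 11 peptide genes under the filter included Agrp (0 and 0.233 FPKM early, 0.870 and 0.599 FPKM late), Kiss1 and Vip.

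Genes that package and process peptides were also mostly higher. Of 16, 10 were higher (62.5%, against 19.2% of all symbols) and none lower (9 without E12.0, median 1.46). Chga, Chgb, Scg2, Scg3, Scg5, Vgf and Pcsk1n are also in the neuropeptide list, so the counts of these lists are not independent. Beside Scg2, Vgf, a granin-like precursor, read 0.417 and 2.12 FPKM early and 21.8 and 22.2 FPKM late (3.45). The prohormone convertase genes Pcsk1 and Pcsk2 read 0.273 and 1.51 and 3.68 and 7.23 FPKM early and 6.04 and 5.92 and 17.6 and 18.4 FPKM late. Cpe, the carboxypeptidase that trims the cleaved peptides, was already abundant (167 and 322 against 478 and 504 FPKM, 1.08), and Pam, which amidates peptides, was below the threshold (0.57). Chga and Chgb, the chromogranins of dense-core granules, had differences of 2.02 and 2.38.

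Of 37 synaptic vesicle genes, 30 were higher and none lower (31 without E12.0), with a median of 1.73, or 1.45 relative to all symbols. Syn2, a synapsin that tethers vesicles, read 2.30 and 5.21 FPKM early and 40.7 and 45.8 FPKM late (3.29). Rims1, an active zone organizer, read 1.70 and 2.81 and 19.3 and 20.9 FPKM (2.72), and Snap25, a SNARE protein of vesicle fusion, read 12.8 and 26.8 and 91.6 and 93.3 FPKM (2.25). Both replicates of E17.5 agreed closely in all 3. Not every vesicle gene differed: Syt11, an atypical synaptotagmin, read 69.0 and 80.3 and 82.4 and 83.8 FPKM (0.16), and Syn1 and Vamp2 were higher than E12.5 but near the E12.0 level (11.1 and 4.47 against 13.4 and 13.3 FPKM for Syn1).

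The postsynaptic list differed less. Of 36 scaffold and adhesion genes 19 were higher and none lower (17 without E12.0), with a median of 1.05, and 12 were higher after median-of-ratios scaling and 10 after quantile normalization. Camk2b, a subunit of the calcium/calmodulin-dependent kinase, read 2.84 and 8.96 FPKM early and 62.6 and 67.5 FPKM late (3.42). Dlg2, the scaffold PSD-93, read 1.97 and 3.17 and 20.1 and 20.1 FPKM (2.58). In contrast Dlg4, the scaffold PSD-95, was well expressed already at E12 (33.7 and 42.7 against 72.4 and 72.9 FPKM, 0.92), and Camk2a stayed low (5.47 and 4.19 against 7.73 and 7.08 FPKM, 0.54).

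Of 20 genes for GABA and glycine receptors 17 passed the filter. All 17 were higher, against 19.2% of all symbols (15 without E12.0, median 2.24). Genes near 0 at E12 pass the filter only through their late level, so this count describes the list and tests nothing. Glra2, a glycine receptor subunit of immature neurons, read 0.586 and 5.27 FPKM early and 41.7 and 44.8 FPKM late (3.81). Gabra5 and Gabrg1, subunits of the GABA-A receptor, had differences of 3.80 and 3.60. At E17.5 Gabra3 (38.8 and 40.4 FPKM) lay above Gabra2 and Gabra5 (31.9 and 33.2 and 31.5 and 31.9 FPKM), and these above Gabra4 (6.71 and 6.95 FPKM), with Gabra2 and Gabra5 close to each other. The 3 genes under the filter were Gabrd, Gabre and Glra1.

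Glutamate receptor genes gave 17 higher and none lower of 23 (18 without E12.0; median 2.17). Grm7 and Grm3, metabotropic receptors, and Grin3a, an NMDA receptor subunit, had differences of 3.41, 3.38 and 3.21. The obligatory NMDA subunit gene Grin1 read 1.36 and 2.46 FPKM early and 16.4 and 16.4 FPKM late (2.60), and Gria2, which makes AMPA receptors impermeable to calcium, read 9.95 and 21.8 and 83.4 and 88.7 FPKM (2.46). Kainate receptor genes were mixed: Grik5 read 29.4 and 17.53 against 20.2 and 19.9 FPKM (-0.17) and Grik3 8.96 and 8.19 against 13.5 and 13.7 FPKM (0.61), both below the threshold, whereas Grik1 and Grik4 were higher (2.46 and 1.29). Every AMPA receptor gene of the list was counted as higher.

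Ion channel genes were also mostly higher. Of 24 voltage-gated sodium and calcium channel genes 14 were higher (13 without E12.0; median 1.32), and of 40 potassium and HCN channel genes 29 were higher (27 without E12.0; median 1.43), with none lower in either list. Dpp10, an auxiliary subunit of A-type potassium channels, read 0.882 and 2.18 FPKM early and 27.9 and 30.4 FPKM late (3.62), and its pore subunit Kcnd2 read 3.62 and 6.49 and 31.0 and 32.8 FPKM (2.48). Cacna1e, an R-type calcium channel, had 0.944 and 1.35 against 11.7 and 12.8 FPKM (2.63), and Nalcn, the sodium leak channel, 2.95 and 4.93 against 23.4 and 23.2 FPKM (2.33). Kcnh2 (-0.46) and Cacna1h (0.17) were below the threshold, both already above 10 FPKM at E12. With quantile normalization 16 of the 40 potassium and HCN channel genes were counted, and many of these genes lie at a few FPKM, where the pseudocount weighs most.

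Genes of the neuronal cytoskeleton were abundant from the start. Of 34, 10 were higher (29.4%, against 19.2% of all symbols) and none lower (8 without E12.0, 17 without E12.5, median 0.77). Gap43, a growth cone protein, read 101 and 225 FPKM early and 843 and 891 FPKM late (2.52), Mapt, the microtubule protein tau, read 58.9 and 115 and 410.1 and 431 FPKM (2.34), and Sncb, beta-synuclein, read 0.243 and 0.549 and 16.0 and 17.8 FPKM (3.69). Dcx and Ina, early neuronal markers, were level (82.9 and 62.7 against 88.9 and 90.9 FPKM and 131 and 177 against 158 and 159.9 FPKM). Transmitter genes were mixed as well: 6 of the 15 that passed were higher, with or without E12.0. Gad1, a GABA-synthesizing enzyme, read 10.1 and 15.0 FPKM early and 67.4 and 71.1 FPKM late (2.40), whereas its partner Gad2 read 28.6 and 23.6 and 17.2 and 19.1 FPKM (-0.50). Th, the first enzyme of dopamine synthesis, read 11.8 and 11.0 and 6.87 and 7.27 FPKM (-0.62), and Slc17a6, the vesicular glutamate transporter VGLUT2, read 26.5 and 41.0 and 58.0 and 64.0 FPKM (0.86).

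Ratios of related genes within a library do not depend on that library's overall scale, although each gene's own estimate still depends on its table. Of 26 pairs listed, 23 could be measured; the ratio was higher in both late libraries than in both early ones for 15, lower for 4 and overlapping for 4. For single symbols, whose values do depend on that scale, 50.9% lay above both early libraries in both late ones and 23.7% lay below. The share for ratios of other gene pairs was not counted. Slc12a5 (KCC2), which exports chloride from mature neurons, over Slc12a2 (NKCC1), which imports it, was 0.434 and 0.930 at E12.0 and E12.5 and 4.06 and 4.11 at E17.5. Slc12a2 was nearly level (12.8 and 14.5 against 13.5 and 13.8 FPKM), so the ratio followed Slc12a5 (5.54 and 13.5 against 54.8 and 56.8 FPKM). Actl6b over Actl6a, the neuronal and progenitor forms of a chromatin remodelling subunit, was 0.529 and 0.811 early and 3.92 and 4.35 late, with both genes contributing (1.03 and -1.54). Ss18l1 over Ss18, another such pair, was 1.07 and 1.49 early and 3.58 and 3.97 late. Dpf1 over Phf10, the remaining pair of that complex, was lower late (1.52 and 1.59) than early (1.64 and 2.33), by a narrow margin.

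Further pairs of genes had ratios that differed between the stages. Dnmt3a over Dnmt3b, the de novo DNA methyltransferases, was 6.64 and 11.9 early and 38.3 and 43.4 late. Ezh1 over Ezh2, alternative catalytic subunits of Polycomb repressive complex 2, was 0.0314 and 0.0699 early and 0.285 and 0.275 late, so Ezh2 exceeded Ezh1 in all 4 libraries. Eno2 over Eno1, the neuronal and ubiquitous enolases, was 0.0277 and 0.0503 early and 0.196 and 0.221 late. In these 3 pairs the E12.5 ratio lay between those of E12.0 and E17.5. The ratio Grin2a over Grin2b, which is known to increase after birth, was 0.770 and 0.200 early and 0.0982 and 0.102 late; Grin2a lay under 2 FPKM in every library, so its early ratio is imprecise. Camk2a over Camk2b was likewise lower (1.93 and 0.467 early, 0.123 and 0.105 late). Cldn5 over Plvap, the tight junction gene of the blood-brain barrier over a gene of leaky vessels, was 2.43 and 7.95 early and 19.8 and 23.8 late.

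**Figure D3:**
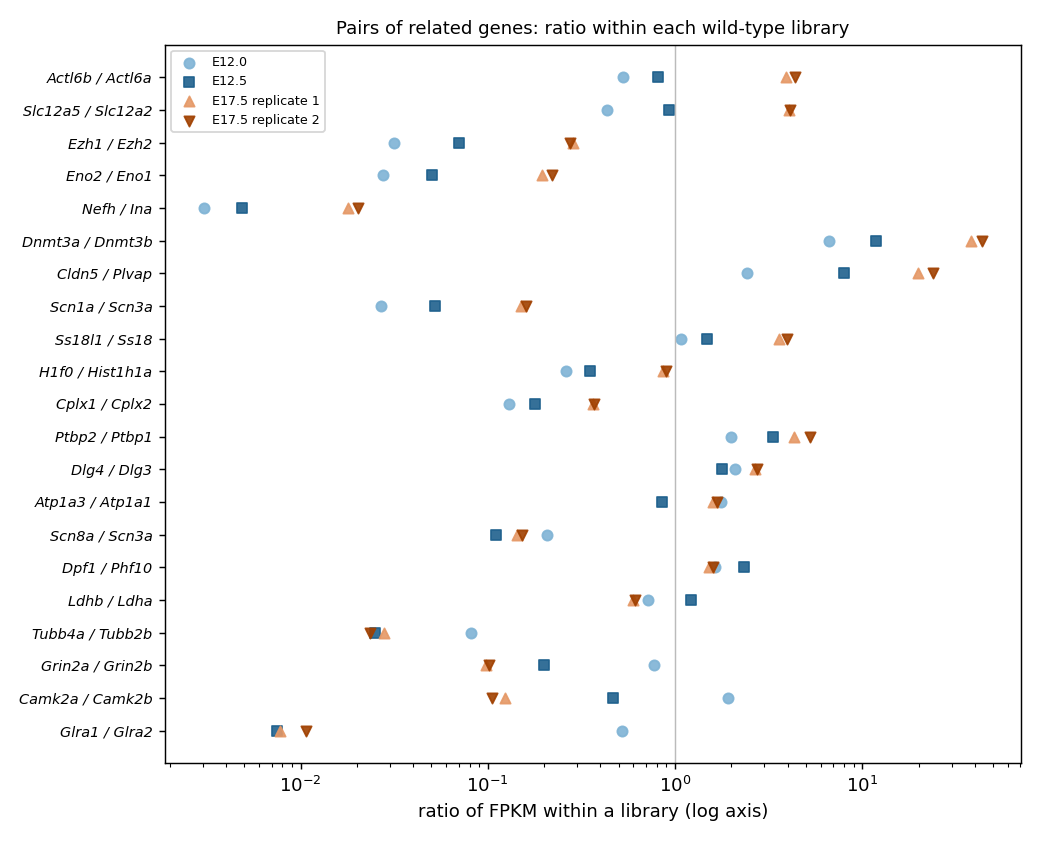
Ratio of the FPKM of 2 related genes within each wild-type library (log axis) for 21 of the 23 measured pairs, ordered by the change of the ratio; Gfap over Nes is left out for its near-zero early values, and 1 other pair is not shown. Slc12a5 over Slc12a2 and Actl6b over Actl6a cross 1 between the early (blue) and late (orange and brown) libraries, and the E12.0 library is far from E12.5 in the lowest rows.

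Astrocyte genes were mostly higher at E17.5. Of 21 that passed (of 25), 16 were higher and 1 lower (14 and 1 without E12.0; median 2.0). Sparcl1, an astrocyte-secreted synapse-promoting protein gene, read 4.46 and 7.56 FPKM early and 101 and 103 FPKM late (3.92). Bcan, the proteoglycan brevican, read 0.540 and 1.51 and 28.6 and 28.5 FPKM (3.91), and Apoe, a lipid carrier, read 12.53 and 21.5 and 209 and 189 FPKM (3.52). Aldh1l1, a widely used astrocyte marker, read 0.783 and 4.76 and 27.2 and 30.0 FPKM (3.21). Aqp4, the water channel of end-feet, read 3.52 and 4.36 FPKM late, and Gfap, a filament gene of mature astrocytes, did not pass the filter (0.461 and 0.0272 FPKM early, 1.13 and 1.14 FPKM late). Fgfr3, shared by progenitors and astrocytes, was lower (43.7 and 54.6 against 15.3 and 15.5 FPKM, -1.60). The tanycyte and ependyma list had 7 higher and 2 lower of 11 (6 and 2 without E12.0), and the ciliary genes Dynlrb2 and Rsph1 had differences of 2.97 and 2.54.

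In the oligodendrocyte lineage 13 of 20 genes were higher and 2 lower (11 and 3 without E12.0). Pdgfra, the receptor of oligodendrocyte precursors, read 0.429 and 0.565 FPKM early and 15.5 and 14.05 FPKM late (3.40), and Lhfpl3, another precursor marker, read 0.306 and 0.975 and 14.4 and 15.3 FPKM (3.30). Mbp, a gene of myelin, differed less (4.53 and 6.17 against 12.8 and 12.2 FPKM, 1.10). Cldn11 had the largest difference (3.56), but it is also a gene of the meningeal barrier, and its late values (18.2 and 11.5 FPKM) differed between replicates in the same direction as the meningeal list. That tissue's part in the Cldn11 value was not tested. Nkx2-2 and Nkx6-2, early lineage regulators that also pattern progenitors, were lower (-1.69 and -1.58).

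Genes of microglia, the resident macrophages of the brain, were higher in 13 of 20 cases and lower in none (11 without E12.0). The complement gene C1qa read 1.79 and 3.56 FPKM early and 12.9 and 11.9 FPKM late (1.91), and Csf1r, the receptor that microglia need, read 0.703 and 2.51 and 8.68 and 7.14 FPKM (1.86). Mrc1, a marker of border macrophages, had the largest difference (0.0434 and 0.160 against 7.74 and 4.38 FPKM, 2.64). Of 27 endothelial genes 6 were higher and 1 lower (3 and 1 without E12.0; median 0.43), a share of 22.2% higher, near the 19.2% of all symbols. Pan-endothelial Pecam1 read 3.84 and 6.84 FPKM early and 10.0 and 8.86 FPKM late (0.76), and genes of the blood-brain barrier went different ways. Slco1c1, a thyroid hormone transporter, read 0.672 and 2.35 and 8.95 and 9.10 FPKM (2.08), and Cldn5 had a difference of 1.65. Abcg2, an efflux transporter, was below the threshold (0.25), and Lef1, a Wnt effector, was lower (-1.22). Among pericyte genes 7 of 12 were higher and 1 lower (4 and 1 without E12.0), with Vtn at 4.19 and 5.49 against 33.0 and 21.3 FPKM (2.25).

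Markers of tissue next to the hypothalamus also differed between the stages and between the late libraries. The meningeal and mesenchymal list was higher in 19 of 22 cases, with or without E12.0, and its summed FPKM was 126 and 118 early and 719 and 487 late. Its collagen gene Col1a2 read 3.28 and 2.36 FPKM early and 66.2 and 40.7 FPKM late (3.80), and Dcn, the proteoglycan decorin, read 0.285 and 0.344 and 22.6 and 13.4 FPKM (3.81). The summed choroid plexus list was 25.1 and 42.5 FPKM early and 88.3 and 175 FPKM late. Ttr, at 49.99 and 133 FPKM, made up most of the late sum in both replicates. Pituitary markers summed to 1.15 and 2.79 FPKM early and 94.7 and 24.6 FPKM late; of 17, only 5 passed the filter, and the pituitary factors Pou1f1 and Hesx1 reached at most 0.367 and 0.0476 FPKM in any library. Surface epithelium (2.01 and 2.40 against 18.8 and 12.8 FPKM) and muscle and cartilage (27.5 and 30.8 against 50.2 and 63.4 FPKM) were also above their early sums. The telencephalic sum was lower late (192 and 170 against 122 and 119 FPKM). The part of these tissues in the values of other lists was not tested.

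**Figure D4:**
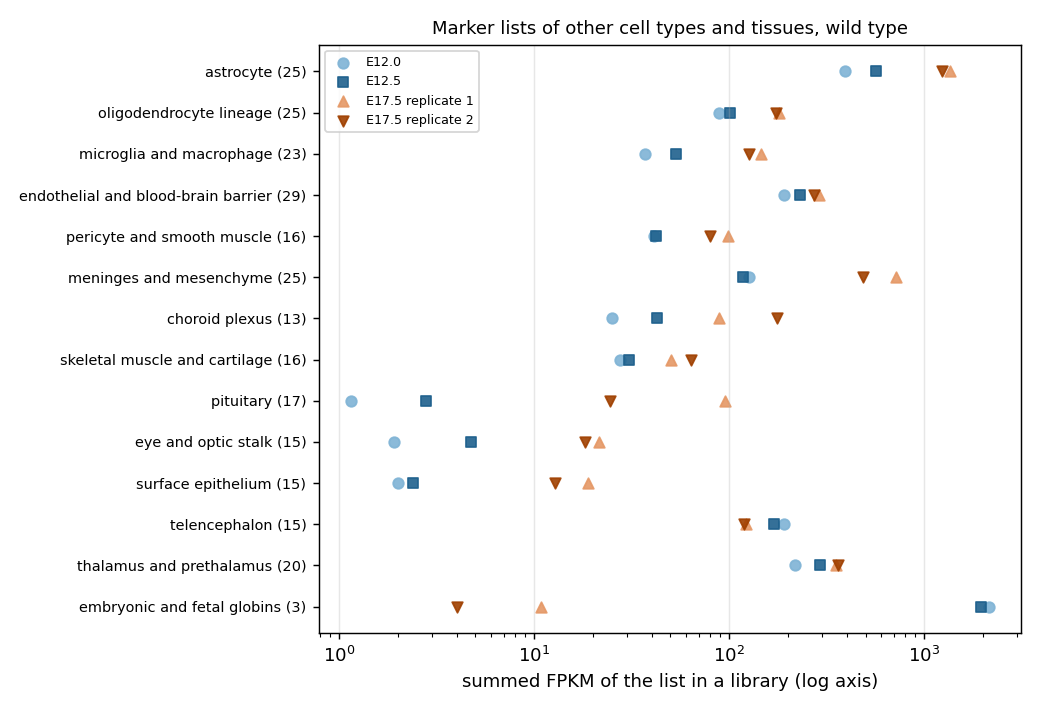
Summed FPKM in each wild-type library (log axis) over all members of marker lists for other cell types and neighbouring tissues (number of symbols in parentheses). Late libraries (triangles) lie above early ones except for telencephalon and embryonic globins, and the 2 late libraries are farthest apart for pituitary, 94.7 against 24.6.

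Of 42 receptor genes for hormones and metabolic signals in both tables only 20 passed the filter. Of those, 16 were higher, against 19.2% of all symbols, and none lower (12 higher without E12.0, 1 with a pseudocount of 5). Members near 0 at E12 passed the filter only through their late level, so the count describes the list and tests nothing. Trhr, the thyrotropin-releasing hormone receptor, read 0 and 0.0590 FPKM early and 3.77 and 3.72 FPKM late (2.20). Crhr1, the corticotropin-releasing hormone receptor, read 0.363 and 0.768 and 4.69 and 4.42 FPKM (1.84), and Lepr, the leptin receptor, read 0.188 and 0.172 and 2.90 and 1.88 FPKM (1.51). These levels stayed under 5 FPKM at E17.5. Thra, the thyroid hormone receptor alpha, was the most abundant of the list (57.6 and 103 against 194 and 198 FPKM, 1.34), and Insr, the insulin receptor, was level (11.7 and 11.4 against 12.6 and 13.03 FPKM, 0.14). Of 19 clock genes 2 were higher (10.5%, against 19.2% of all symbols): Arntl (Bmal1), with 1.68 and 5.08 against 10.1 and 10.7 FPKM (1.5), and Rora. Without the E12.0 library only Rora was higher. Per2, a core repressor of the clock, read 1.18 and 1.505 and 2.53 and 2.45 FPKM (0.58).

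All 44 axon guidance genes passed the filter, which is set on the mean of the 4 libraries and does not show that each was detected at both stages. They gave 14 higher (31.8%, against 19.2% of all symbols) and 2 lower (4.55%, against 5.71%). Their median was 0.41, and the counts without E12.0 were 9 and 2. Robo3, which lets commissural axons approach the midline, read 8.86 and 10.6 FPKM early and 0.689 and 0.908 FPKM late (-2.58), while its relative Robo2 read 7.55 and 13.7 and 24.8 and 25.8 FPKM (1.23). Unc5d, a netrin receptor gene, had 0.519 and 1.37 against 10.3 and 10.2 FPKM (2.56), and Dcc, the attractive netrin receptor, 29.3 and 21.0 against 12.4 and 12.8 FPKM (-0.92). Robo1 and Slit2 were level (0.13 and 0.07).

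Counts of energy metabolism genes, and the median of translation genes, depended on the E12.0 library. Of 43 nuclear-encoded respiratory chain genes 7 were higher (16.3%, against 19.2% of all symbols), and none without the E12.0 library. Of the 43, 42 lay above the all-symbol median in the step from E12.0 to E12.5. Of 48 cytosolic ribosomal protein genes 46 did so, 2 were lower at E17.5 (Rpl30 and Rpl34, uncertain for their near copies), and their median of 0.18 became -0.18 without E12.0 and -0.13 after median-of-ratios scaling. Glycolytic genes had 10 higher and 1 lower of 25 (7 and 1 without E12.0): Hk1, the main brain hexokinase, read 13.9 and 23.6 FPKM early and 72.0 and 75.1 FPKM late (1.96), whereas Hk2, which many proliferating cells use, read 4.92 and 3.93 and 1.48 and 1.30 FPKM (-1.18). Pfkp and Eno2 had differences of 2.5 and 2.63, and Gapdh was level (0.11).

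Among RNA-binding and splicing regulators 4 of 25 were higher and 3 lower (2 and 3 without E12.0). The share of 16% higher is below the 19.2% of all symbols. The lower genes include Celf2, which is uncertain because it was listed at 0 in both late libraries. Rbfox1, a splicing regulator of maturing neurons, read 1.61 and 7.26 FPKM early and 25.8 and 27.6 FPKM late (2.57), and Ptbp1, which represses neuronal exons in progenitors, read 59.9 and 49.0 and 22.7 and 19.6 FPKM (-1.32). Chromatin regulators gave 5 higher (16.1%) and 6 lower of 31, and 1 and 3 without E12.0. Smarca2, a remodelling ATPase, had 13.7 and 25.9 against 65.4 and 66.9 FPKM (1.75), and its relative Smarca4 90.8 and 108 against 76.1 and 76.6 FPKM (-0.37). Imprinted genes went both ways, 9 higher (34.6%) and 5 lower (19.2%) of 26, against 19.2% and 5.71% of all symbols. Without E12.0 the counts were 5 and 4. Dlk1, a Notch-related ligand, read 144 and 113 FPKM early and 28.3 and 23.6 FPKM late (-2.26), and Cdkn1c, a cell cycle inhibitor, read 178 and 251 and 86.6 and 69.0 FPKM (-1.44). Nap1l5, a neuronal gene, was higher (18.5 and 43.9 against 132 and 147 FPKM, 2.25), as was Igf2 (2.41), a growth factor strong in meninges whose late values (70.0 and 44.2 FPKM) again ranked the replicates as the meningeal list did.

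The Foxd1-mutant libraries, which share no sample with the wild type, were set beside these values. There 2479 symbols (19.8%) were higher and 674 (5.39%) lower by the same rule. Of the 2408 wild-type higher symbols 2158 were also higher in the mutant, 89.6% of the wild-type and 87.1% of the mutant list. For lower symbols the overlap was 589, or 82.5% and 87.4%. These libraries come from the same 2 kinds of table, so a difference of quantification would be shared as well. The proliferation list had 38 lower in the mutant against 37 in wild type, synaptic vesicle genes 33 higher against 30, and GABA and glycine receptors 17 higher in both. Avp differed: in the mutant it was listed at 0 in both early libraries and read 9.38 and 3.43 FPKM late, against 71.6 and 62.1 FPKM in wild type. The difference between genotypes in these stage values was not tested.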

How the data were processed

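RNA was extracted from pooled dissected hypothalamic tissue, and barcoded cDNA libraries were sequenced paired-end for 100 cycles, per the labels' protocols. TopHat and Cufflinks and the build mm9 are named per the submitters' processing notes; versions and parameters are not given in the sources used here. The authors deposited FPKM values: 23737 rows per gene for E12.0 and E12.5, and 32952 rows per transcript for E17.5. E12 rows without a gene name (8, at most 0.0338% of FPKM) were left out. Rows were summed by symbol. 22725 symbols were in both tables, 12515 had a mean of at least 1 FPKM, and 96.7% of these list the same accessions in both. Values were compared as log2(FPKM + 1) with Python 3.11.15, numpy 2.4.6 and pandas 2.3.3. The counting rule was tested on simulated data.

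Total counts per sample are not given. Steps in the low values gave about 34.6 and 43.1 M fragments for the E17.5 libraries (76.8% and 77.1% of values within 0.1 of a whole number); for E12.0 and E12.5 the estimates were not firm (31.2% and 35.4%), so no counting interval is given. With 2 late libraries and 1 per early stage, the spread shown may be technical.

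Samples were grouped by the source label. Named are the 12 largest differences in each direction, the 2 to 5 largest members of each list discussed, genes whose role defines a list, related pairs and Foxd1. Predicted, small RNA and sex-linked genes were skipped. Genes named as level, smallest or opposite to their list, or as examples of the E12.0 library, were chosen after their values were seen. The members and the 47 lists were chosen with earlier results of these data known. Alternatives changed the pseudocount, filter, scaling, row choice and libraries. Some genes are not reported here.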

Additional observations from a re-analysis of the deposited data

Results flagged for a closer look

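One symbol, Hist1h2ba, a histone H2B gene, was counted in opposite directions in the genotypes. In wild type it read 1.01 and 1.74 FPKM at E12.0 and E12.5 and 21.2 and 13.6 FPKM at E17.5, a log2 difference of 2.94. In the Foxd1-mutant libraries it read 176 and 204 FPKM early and 18.1 and 7.69 FPKM late, a difference of -3.88. The difference between the genotypes was not tested. H2B genes have near-identical copies, among which fragments can be split differently, so both values are uncertain.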

How the results depend on the processing

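No paired analysis was possible because the early groups hold replicate 1 only, so the stages share fewer than 2 replicate numbers. The count of higher symbols, 2408 as reported, was 1147 with a pseudocount of 5, 1481 with a filter at 5 FPKM, 1542 after quantile normalization, and 611 at a difference of at least 2; it was 1564 with median-of-ratios scaling and E12.0 left out, an alternative chosen after seeing the data. The count of lower symbols, 714, was 401 with a pseudocount of 5, 1106 after rescaling to a common total, 1106 after median-of-ratios scaling, 1275 after quantile normalization and 189 at a difference of at least 2. Leaving out each library in turn gave 1771 to 3391 higher and 699 to 815 lower symbols; 1771 was without E12.0 and 3391 without E12.5. The 795 symbols at least 1 apart between E12.0 and E12.5 became 1597 with a pseudocount of 0.1 and 275 with 5, and the 31 between the E17.5 libraries became 16 with a pseudocount of 5 and 18 with a filter at 5 FPKM. The medians of 9 of the 47 lists changed sign under at least 1 of 17 alternatives. With the filter at 5 FPKM the tanycyte and ependyma list went from 1.45 to -0.12 and the muscle and cartilage list from 1.47 to -0.068. The other 7 were within 0.5 of zero as reported: chromatin (to 0.18 without E12.5), choroid plexus (0.063, as low as -0.41 after quantile normalization), thalamus (0.17, as low as -0.36 with the largest row of a symbol), RNA-binding (0.057, as low as -0.35 with the largest row), cytosolic ribosomal proteins (0.18, as low as -0.27), adult globins and red cell genes (0.50, as low as -1.08 after rescaling) and immediate early genes (-0.26, up to 0.30 after rescaling). Of the list medians other than those of the tanycyte and muscle lists at 5 FPKM, 564 moved by less than the spread between libraries and 232 by more. The cause of these shifts was not tested. Depth limits the low genes most: receptors and peptides under 5 FPKM depend on the pseudocount.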

Other observations

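Genes for cholesterol and lipid synthesis, which supply membranes of growing neurites and later myelin, were close between the stages: 4 of 28 were higher (14.3%, against 19.2% of all symbols) and none lower (1 higher without the E12.0 library), with a median of 0.61. Fdps, which makes farnesyl pyrophosphate, read 55.0 and 108 FPKM at E12.0 and E12.5 and 204 and 197 FPKM at E17.5 (log2 difference 1.37). Scd2, a fatty acid desaturase, was level (284 and 271 FPKM against 259.6 and 261 FPKM).

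Immediate early genes gave 1 higher and 3 lower of the 11 that passed, with or without E12.0. Btg2, which is also a gene of neurogenic divisions, read 38.8 and 43.9 FPKM early and 7.12 and 6.21 FPKM late (-2.46). Ier2 read 13.9 and 14.6 FPKM early and 3.47 and 3.53 FPKM late (-1.76). Among genes of interferon response, complement and antigen presentation 6 of 13 were higher and none lower, with or without E12.0. Among thalamic and prethalamic markers 4 of 19 were higher (21.1%, near the 19.2% of all symbols) and 3 lower. Without E12.0 the counts were 4 and 6, and the median turned from 0.17 to -0.22. In that list Calb2, the calcium-binding protein calretinin, read 7.83 and 13.3 FPKM early and 93.7 and 93.5 FPKM late (3.07), and Olig3, a factor of thalamic progenitors, read 4.29 and 7.74 FPKM early and 0.273 and 0.304 FPKM late (-2.40).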
